A study of Mus musculus with 6 samples.

Results

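Of the 24421 genes in the deposited table, 10 were examined here as T cell receptor response genes, chosen by symbol from a list of genes that signalling through the antigen receptor induces: the nuclear receptors Nr4a1, Nr4a2 and Nr4a3, the zinc finger factors Egr1, Egr2 and Egr3, the surface proteins Cd69, Cd83 and Cd5, and Myc. All 10 were in the table and all 10 passed the filter on low counts, which left 11932 genes for testing. The RNA was prepared from purified mouse Tregs (regulatory T cells, the Foxp3-expressing arm of the CD4 lineage) of spleen and lymph nodes. The 3 Srebp2cKO libraries (replicates 6, 7 and 8) carried the genotype Srebp2FL/FL-Foxp3YFPCRE+/-, in which a Cre recombinase and a yellow fluorescent protein are expressed from Foxp3 and recombine floxed alleles of Srebf2, the gene for SREBP2. The 3 Srebp2WT libraries (replicates 1, 3 and 5) carried Srebp2WT/WT-Foxp3YFPCRE+/+, so Cre was present in both groups, as +/- in Srebp2cKO and +/+ in Srebp2WT. The Cre genotype therefore differed together with the Srebf2 genotype, and their effects cannot be told apart here. The labels do not state age, sex, strain or the purification gate, or whether each library is a different mouse. The p-values therefore describe the spread among these 6 libraries, which may be technical.

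When a T cell receptor binds its ligand, kinases downstream of it raise calcium and activate the MAP kinase, NF-kappaB and NFAT pathways. Within minutes to hours these switch on transcription factors of the NR4A and EGR families, and surface proteins such as CD69 that are widely used to mark recently stimulated T cells. Tregs recognise self antigens, and their steady-state levels of Nr4a1, Egr2 and CD5 are commonly read as a record of that stimulation. SREBP2 activates the genes of cholesterol synthesis and uptake.

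Promoter sequences are shown for the members whose matched promoter held a site for CREB or SRF, factors through which receptor signals are known to reach immediate early genes. A window of 250 bases before to 50 bases after the start site was matched in RefSeq (GRCm38.p6) for Nr4a1, Nr4a2, Nr4a3, Egr2 and Cd5, and the promoters of the other members were not analysed here. Capitals mark the core of the cyclic AMP response element (TGACG, read on either strand, so also CGTCA) and the CArG box bound by SRF. Each stretch runs 5′ to 3′ on the gene's own strand, from 10 bases before the first to 10 bases after the last of these matches upstream of the start.
Nr4a1, chr15:101266603-101266820, plus strand: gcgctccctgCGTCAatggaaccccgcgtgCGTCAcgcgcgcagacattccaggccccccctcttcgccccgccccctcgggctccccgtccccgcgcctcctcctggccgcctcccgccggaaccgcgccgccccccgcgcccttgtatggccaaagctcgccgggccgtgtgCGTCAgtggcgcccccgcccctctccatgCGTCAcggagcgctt
Nr4a2, chr2:57124100-57124213, minus strand: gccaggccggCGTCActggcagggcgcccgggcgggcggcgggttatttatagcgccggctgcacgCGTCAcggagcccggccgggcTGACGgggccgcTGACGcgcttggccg
Nr4a3, chr4:48045064-48045172, plus strand: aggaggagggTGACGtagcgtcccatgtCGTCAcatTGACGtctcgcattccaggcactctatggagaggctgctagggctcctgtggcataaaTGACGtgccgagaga
Egr2, chr10:67537748-67537828, plus strand: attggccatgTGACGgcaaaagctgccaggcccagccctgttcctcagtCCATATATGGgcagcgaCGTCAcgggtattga

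Each NR4A promoter held 4 of these cores. Egr2 had 5 windows, and in 3 overlapping ones 2 cores flanked the CArG box shown. At least 1 core was found in 20.8% of the 32851 mouse promoter windows in the table, at least 3 in 1.03%, and a CArG box in 1.63%. Among the 11272 windows of genes tested here the shares were 31.9%, 2.43% and 1.30%. The 3 NR4A windows had a GC content of 64.7% to 81.7%, against a median of 52.7% over all windows, and a motif that contains CG is more frequent in such sequence. The full element TGACGTCA, which contains the core on both strands, was in none of the 9 windows of the 5 members and in 1.79% of all windows. The AP-1 motif TGANTCA was also in none of them (7.81% of all windows). The NFAT core GGAAA was in windows of Nr4a2, Egr2 and Cd5, and in 61.3% of all windows. An EGR motif, GCGGGGGCG, was in the window of Nr4a1 and in 2.91% of all windows, while its other form GCGTGGGCG was in none of the members' windows (0.612% of all). The sterol regulatory element through which SREBP factors act, searched as TCACNCCAC, was in none of the members' windows and in 1.24% of all. These are matches of letters within short windows, not measured binding.

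The libraries held 13918321 to 17249898 counts. Srebf2 stood at 12.4 ± 1.56 CPM in Srebp2cKO and 185 ± 10.9 CPM in Srebp2WT (CPM, library-size-normalised counts scaled by TMM; SD, n = 3 libraries each here and below; log2 fold change -3.91, SE 0.11). Foxp3 averaged 435 ± 27.0 CPM in Srebp2cKO and 454 ± 11.5 CPM in Srebp2WT, and all 7 Treg markers examined passed the filter. Of the 7, Il2ra rose (0.41 on the log2 scale, edgeR adjusted p = 0.0101) and Izumo1r fell (-0.43, adjusted p = 0.0396). Their summed level was 4325 to 4477 CPM of total counts in Srebp2cKO and 4533 to 4774 in Srebp2WT. The exact two-sided permutation p was 0.1, the smallest possible for 3 against 3. Several defining markers of other cells were at 0 in every library, namely Itgax and Flt3 of dendritic cells, Ncr1 of natural killer cells, and Pf4 and Ppbp of platelets. Other markers of the same lists were detected, among them Zbtb46 and Xcr1 of dendritic cells, Eomes and Klrb1c of natural killer cells, and Hbb-bs of erythroid cells. The markers at 0 therefore do not show that other cells were absent. The sums of the dendritic and natural killer cell markers are given with Cd83.

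Of the receptor response genes, Cd83 fell to 55.1% and Cd69 rose to 144% of their Srebp2WT level in Srebp2cKO. The other 8 did not pass the test, with estimates between 77.8% (Egr2) and 119.9% (Myc) of the Srebp2WT level. The call of Cd83 was kept in 6 of the 6 fits that left out a library, and that of Cd69 in 2. After a correction for transcript GC content, described with Cd69, the call of Cd83 was kept and that of Cd69 was lost. In bulk RNA, fewer cells that express a gene and less of its RNA per cell cannot be told apart. With edgeR's quasi-likelihood test at a false discovery rate of 0.05, 1 of 10 members was higher and 1 lower in Srebp2cKO. With total counts alone as the scaling, the calls over all genes split into 184 higher and 570 lower, against 283 and 506 here. Among all tested genes, 2.37% were higher, 4.24% lower and 6.61% changed in either direction; with 10 members, 1 call in a direction is the smallest count above 0. Of the 10, Cd69 and Myc stood higher in all 3 Srebp2cKO libraries than in any Srebp2WT library, and Cd83 and Egr2 stood lower in all 3. That is 4 of 10 members with no overlap between the genotypes, where 31.5% of all tested genes had none. The median log2 fold change of the members was -0.13, against -1.5e-04 over all tested genes, with 7 members negative and 3 positive. After the GC correction the members' median was -0.01, with 6 negative and 4 positive. An unadjusted p under 0.05 was reached by 29.1% of all tested genes and by 4 of the 10 members.

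**Figure D1:**
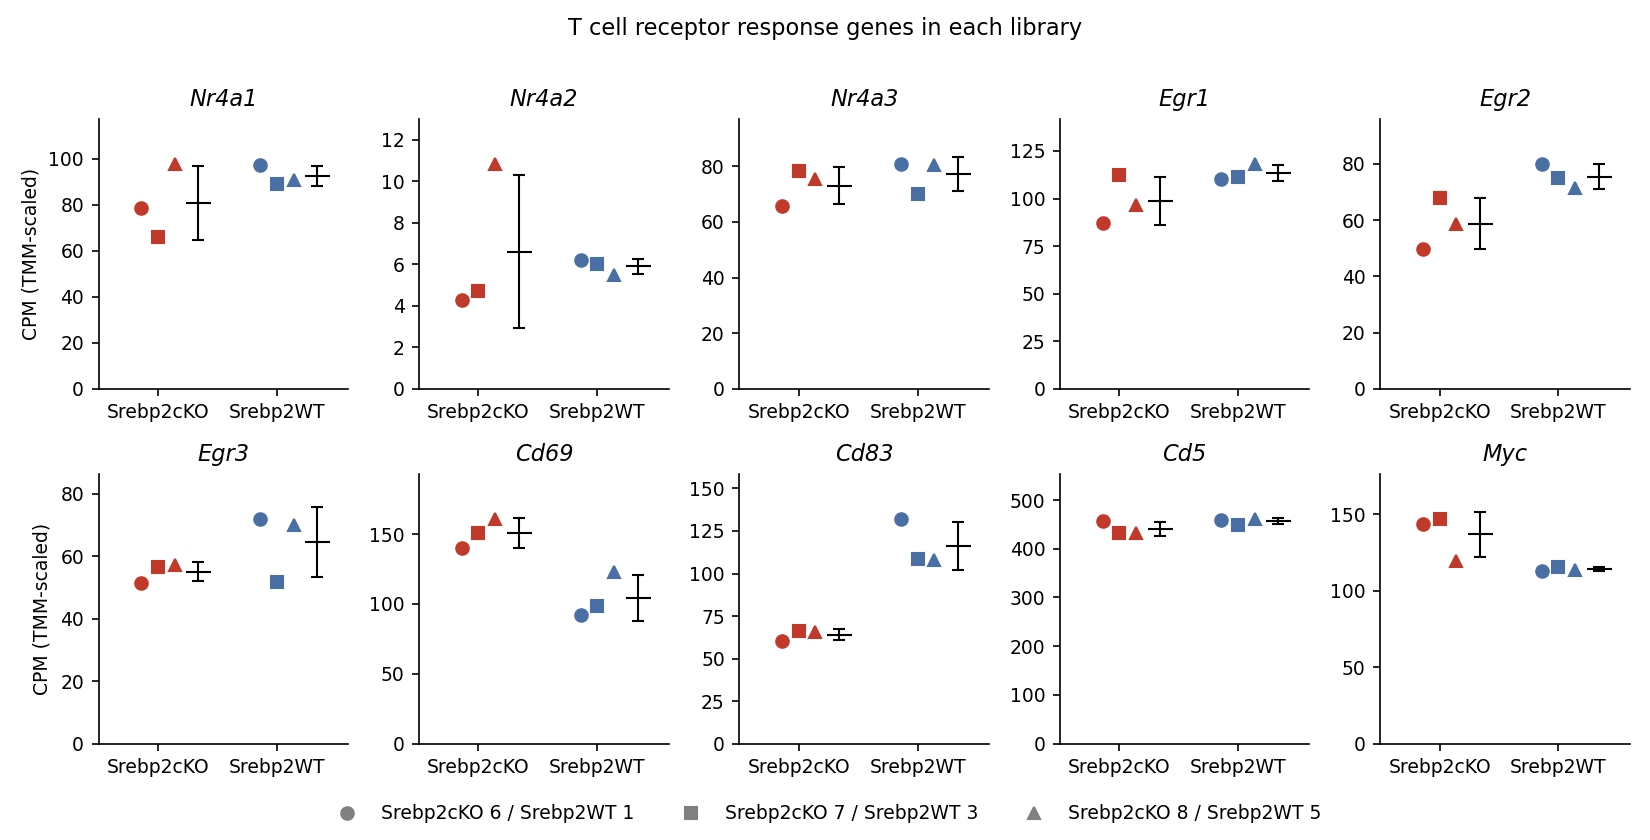
Level of each of the 10 genes in every library, in TMM-scaled CPM on axes that start at 0 and differ between panels. Points are libraries, told apart by their shape, and the bar beside them is the mean with its SD (n = 3 each). The genotypes do not overlap for Cd69, Cd83, Egr2 and Myc, and Nr4a2 has 1 Srebp2cKO library at 10.8 CPM above the others.

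Members differed widely in abundance. Per kilobase of merged exons, Cd5 was the most abundant, at 89.5 ± 2.97 CPM per kilobase in Srebp2cKO and 92.7 ± 1.31 in Srebp2WT. Myc followed in Srebp2cKO at 50.4 ± 5.50 CPM per kilobase, against 42.0 ± 0.463 in Srebp2WT. Cd83, at 24.9 ± 1.19 CPM per kilobase in Srebp2cKO and 45.2 ± 5.40 in Srebp2WT, ranked below Myc in Srebp2cKO and above it in Srebp2WT, where the 2 genes did not differ beyond their spread. Below these, Cd69 (23.1 ± 1.64 CPM per kilobase), Nr4a1 (23.0 ± 4.59) and Egr1 (22.0 ± 2.80) lay within 1 SD of each other in Srebp2cKO. In Srebp2WT Cd69 stood apart from the other two, at 16.1 ± 2.54 CPM per kilobase against 26.3 ± 1.24 for Nr4a1 and 25.3 ± 0.967 for Egr1. Egr2 had 17.3 ± 2.65 CPM per kilobase in Srebp2cKO and 22.2 ± 1.30 in Srebp2WT. Egr3 and Nr4a3 lay close together, at 12.5 ± 0.707 and 12.2 ± 1.08 CPM per kilobase in Srebp2cKO, and at 14.6 ± 2.54 and 12.9 ± 1.02 in Srebp2WT, where Egr3 and Cd69 also lay within 1 SD of each other. Nr4a2 was lowest, at 1.63 ± 0.906 CPM per kilobase in Srebp2cKO and 1.45 ± 0.0912 in Srebp2WT.

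The NR4A genes encode orphan nuclear receptors. In mouse T cells they restrain effector responses, and together they are required for Treg development. None of the 3 passed the test. Nr4a1 (chromosome 15, 101254269 to 101274795, GRCm38 with GENCODE M21 here and below) had 78.7, 65.8 and 97.8 CPM in Srebp2cKO replicates 6, 7 and 8, against 97.3, 89.0 and 90.8 CPM in Srebp2WT replicates 1, 3 and 5. Srebp2cKO replicate 8 matched the Srebp2WT libraries, and the other 2 lay below them. The log2 fold change was -0.19 (95% interval -0.47 to 0.09, edgeR adjusted p = 0.331). Without Srebp2cKO replicate 8 it was -0.36 (adjusted p = 0.0966).

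Nr4a3 (chromosome 4, 48045153 to 48086447) had 65.8, 78.2 and 75.3 CPM in Srebp2cKO, against 81.0, 70.2 and 80.5 CPM in Srebp2WT, and the genotypes overlapped. Its log2 fold change was -0.08 (95% interval -0.28 to 0.13, edgeR adjusted p = 0.604). Nr4a2 (chromosome 2, 57106830 to 57124003) was scarce, with 58, 73 and 186 counts in Srebp2cKO and 99, 93 and 81 counts in Srebp2WT. That is 4.26, 4.71 and 10.8 CPM in Srebp2cKO, against 6.20, 5.99 and 5.48 CPM in Srebp2WT. A single library set its sign: the log2 fold change was 0.18 (95% interval -0.53 to 0.88, edgeR adjusted p = 0.739) with all 6 libraries and -0.39 (adjusted p = 0.290) without Srebp2cKO replicate 8.

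Srebp2cKO replicate 8 also stood apart in some other immediate early genes, of which Fos and Jun were picked out after their values were seen. In others it did not, such as Ier2 (83.8, 73.3 and 82.5 CPM in Srebp2cKO) and Ier5 (138, 142 and 143 CPM). Fos, a subunit of AP-1, had 12.3, 18.8 and 118 CPM in Srebp2cKO and 8.40, 10.5 and 26.9 CPM in Srebp2WT. Jun, its partner, had 34.4, 55.3 and 180.0 CPM in Srebp2cKO and 23.3, 35.2 and 73.7 CPM in Srebp2WT. For both genes Srebp2WT replicate 5 was also the highest library of its genotype. Of 17 tested immediate early genes 0 passed with edgeR and 0 with limma-voom, while DESeq2 called 3 higher and 1 lower and edgeR after the GC correction called 2 higher. An unadjusted p under 0.05 was reached by 7 of the 17, against 29.1% of all tested genes. The part of this library's immediate early level in the Nr4a1 and Nr4a2 values was not tested.

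The EGR genes encode zinc finger factors downstream of MAP kinase and NFAT signalling. Egr2 and Egr3 are known in mouse T cells for limiting activation and for anergy. All 3 had negative log2 fold changes and none passed. Egr2 (chromosome 10, 67535475 to 67542188) came closest, with 49.8, 67.8 and 58.5 CPM in Srebp2cKO against 80.1, 74.98 and 71.3 CPM in Srebp2WT. Every Srebp2cKO library was below every Srebp2WT library. Relative to Srebp2WT this was 77.8%, or -0.36 on the log2 scale (SE 0.11, 95% interval -0.61 to -0.12), with an unadjusted p of 0.00789 and an edgeR adjusted p = 0.0727. DESeq2 called it lower (-0.36, adjusted p = 0.0441), as did edgeR without Srebp2cKO replicate 7 (-0.48, adjusted p = 0.0406). The adjusted p from edgeR was 0.116 after the GC correction, 0.167 without Srebp2cKO replicate 8, and 0.256 and 0.193 without Srebp2WT replicates 1 and 3.

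Egr1 (chromosome 18, 34859823 to 34864984) had 87.4, 112 and 96.5 CPM in Srebp2cKO, against 110.3, 111 and 118 CPM in Srebp2WT. One Srebp2cKO library, replicate 7, reached the Srebp2WT range, and the log2 fold change was -0.20 (95% interval -0.41 to 0.01, edgeR adjusted p = 0.193). Egr3 (chromosome 14, 70077203 to 70082614) had 51.5, 56.6 and 57.1 CPM in Srebp2cKO, against 72.0, 51.7 and 69.9 CPM in Srebp2WT. The spread lay in Srebp2WT, whose replicate 3 was as low as the Srebp2cKO libraries, and the log2 fold change was -0.23 (95% interval -0.50 to 0.04, edgeR adjusted p = 0.239). The remaining family member, Egr4, did not pass the filter on low counts, with 0, 0 and 1 counts in Srebp2cKO and 9, 8 and 7 counts in Srebp2WT. Without the filter it was called lower (edgeR adjusted p = 0.0165). The EGR corepressors Nab1 (0.09) and Nab2 (-0.20) did not pass (edgeR adjusted p = 0.500 and 0.121).

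Cd69 encodes a C-type lectin that appears on T cells soon after stimulation and pulls the egress receptor S1PR1 from the surface. Cd69 (chromosome 6, 129267325 to 129275436) had 139.8, 151 and 161 CPM in Srebp2cKO, against 91.9, 98.5 and 123 CPM in Srebp2WT. All Srebp2cKO libraries were above all Srebp2WT libraries, and Srebp2WT replicate 5 was the nearest to them. The means were 151 ± 10.7 CPM in Srebp2cKO and 105 ± 16.5 CPM in Srebp2WT. Cd69 rose, with a log2 fold change of 0.53 (SE 0.11, 95% interval 0.28 to 0.77, edgeR adjusted p = 0.0240). The call rested on single libraries. Leaving out Srebp2cKO replicate 7 or 8 gave 0.52 and 0.48 (adjusted p = 0.0545 and 0.0693), and leaving out Srebp2WT replicate 1 or 3 gave 0.44 and 0.49 (adjusted p = 0.110 and 0.112).

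The call for Cd69 also depended on transcript GC content. Its longest transcript has a GC content of 35.9%, at percentile 0.602 of the tested genes with a value. Fold changes of all genes followed GC content in these libraries: in the lowest of 20 equal bins the median log2 fold change was 0.25, and in the highest it was -0.28. What produced that trend was not tested. With that trend removed from each library, the log2 fold change of Cd69 was 0.23 (SE 0.09, edgeR adjusted p = 0.150) and it was no longer called. The same correction left Cd83 at -0.81 (adjusted p = 7.9e-04), brought Egr1 and Nr4a1, both above 56% GC, to -7.2e-04 and -0.01, and turned Cd5 to 0.12 (adjusted p = 0.303).

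**Figure D2:**
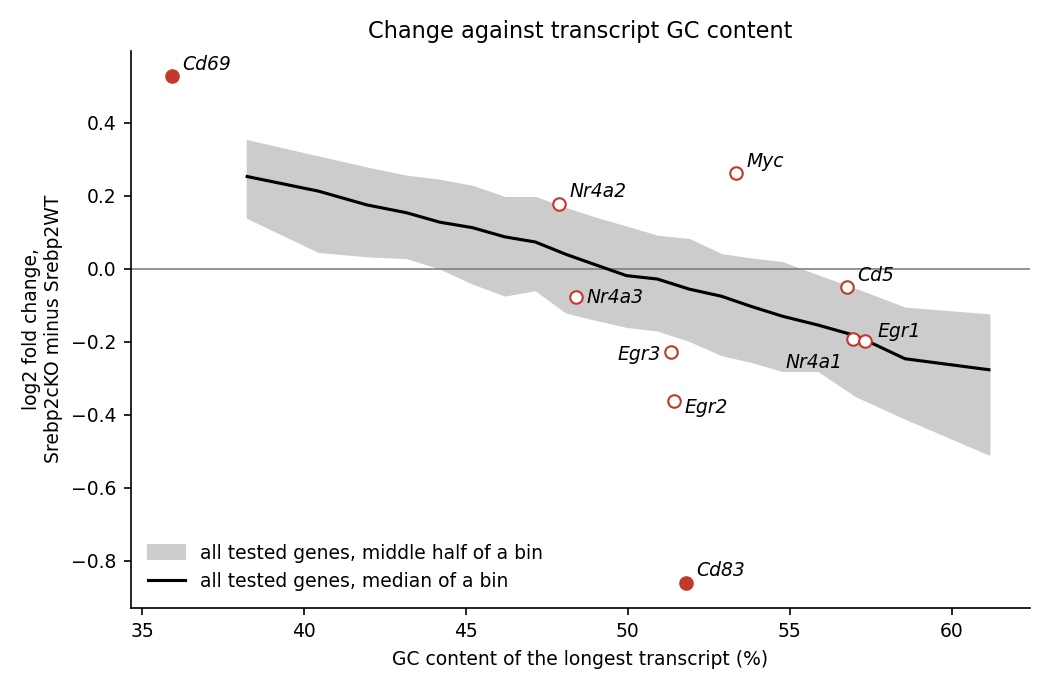
Log2 fold change (Srebp2cKO minus Srebp2WT, vertical axis) against the GC content of each gene's longest transcript (horizontal axis, percent). The line and band show the median and the interquartile range of all tested genes in 20 equal bins, and circles are the 10 members, filled where they passed. Cd69 lies at the low-GC end where genes at large were also higher, while Cd83, at 51.8% GC, lies far below the band.

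Cd83 encodes an immunoglobulin-family membrane protein that is induced on stimulated T cells, is present on activated Tregs, and in antigen presenting cells keeps MHC class II at the surface. Cd83 (chromosome 13, 43784775 to 43803132) had 60.5, 66.1 and 65.5 CPM in Srebp2cKO, against 132, 108 and 108 CPM in Srebp2WT. The genotypes were well apart, and the 3 Srebp2cKO libraries lay within a narrow range. The means were 64.0 ± 3.07 CPM in Srebp2cKO and 116 ± 13.9 CPM in Srebp2WT. Cd83 fell, with a log2 fold change of -0.86 (SE 0.10, 95% interval -1.07 to -0.65, edgeR adjusted p = 9.0e-04), ranking 40 by p among all tested genes. Leaving out each library in turn gave -0.91 to -0.75, with adjusted p of at most 0.00482.

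B cells and dendritic cells also express Cd83, and some markers of B and myeloid cells were also lower in Srebp2cKO. Of 7 B cell markers, 4 were tested and 3 fell (Cd74, Cd22 and Cd79b), while Cd79a, at 0.56 on the log2 scale, was not called. The summed level of the 7 was 25.8 to 34.5 CPM of total counts in Srebp2cKO and 56.4 to 79.5 in Srebp2WT (exact two-sided permutation p = 0.1, the smallest possible for 3 against 3). The defining B cell markers Ms4a1 and Pax5 stood at a mean of at most 0.0864 CPM in either genotype. Of 6 myeloid markers, 3 were tested and 1 fell, Cybb, a subunit of the phagocyte oxidase. The other 2 had positive log2 fold changes and did not pass (Itgam 1.07, Cd68 0.35). Cybb made up most of the list's sum of 37.1 to 42.8 CPM in Srebp2cKO and 53.9 to 88.2 in Srebp2WT (exact permutation p = 0.1). The 7 dendritic cell markers summed to 1.28 to 3.52 CPM in Srebp2cKO and 2.65 to 4.44 in Srebp2WT (exact permutation p = 0.2), with Itgax and Flt3 at 0. The summed CD8 T cell markers were 8.70 to 10.3 CPM in Srebp2cKO and 7.01 to 7.59 in Srebp2WT, and natural killer cell markers 4.06 to 7.61 in Srebp2cKO and 4.77 to 6.05 in Srebp2WT, with 1 of 2 tested natural killer markers, Klrb1c, lower. The part of other cells in the Cd83 result was not tested. Cd74, the invariant chain of MHC class II, averaged 17.7 ± 3.12 CPM in Srebp2cKO and 39.2 ± 7.84 CPM in Srebp2WT, and the ubiquitin ligase March1, which CD83 opposes in antigen presenting cells, was barely detected (0.0194 CPM in Srebp2cKO and 0.0209 CPM in Srebp2WT).

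Cd5, a scavenger-family receptor that dampens antigen receptor signals and whose level on T cells tracks their affinity for self, was the steadiest member. Cd5 (chromosome 19, 10717116 to 10739002) had 458, 432 and 433 CPM in Srebp2cKO, against 459, 449 and 462 CPM in Srebp2WT. The genotypes overlapped, and the highest library was only 1.07 times the lowest. The log2 fold change was -0.05 (95% interval -0.20 to 0.10, edgeR adjusted p = 0.654), and it was 0.12 after the GC correction.

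Myc encodes the transcription factor that drives growth and ribosome production in stimulated T cells. Myc (chromosome 15, 61985391 to 61990374) had 144, 147 and 119.7 CPM in Srebp2cKO, against 113, 115 and 114 CPM in Srebp2WT. All Srebp2cKO libraries were above the tightly grouped Srebp2WT libraries, with replicate 8 closest to them. The difference of 0.26 on the log2 scale (SE 0.09, 95% interval 0.07 to 0.46) missed the threshold (edgeR adjusted p = 0.0906). With the GC correction it was 0.35 and passed (adjusted p = 0.0378). Of 8 tested partners and antagonists of MYC, 0 passed with edgeR or limma-voom, and the count lower was 1 under 7 of the 9 alternatives with all libraries, DESeq2 and the GC correction among them. An unadjusted p under 0.05 was reached by 3 of the 8, against 29.1% of all tested genes. Of 20 tested textbook MYC target genes, 4 rose and 0 fell, against 2.37% and 4.24% of all tested genes, and 12 had an unadjusted p under 0.05, against 29.1%. The 4 were Npm1 (0.53), Gnl3 (0.43), Nop58 (0.38) and Rrs1 (0.35), all of them nucleolar proteins. The median over the 20 was 0.22 on the log2 scale, with 13 positive and 7 negative. The lowest was Odc1 (-0.37, edgeR adjusted p = 0.151). With total counts alone 1 of the 20 rose, and with DESeq2 7 did. The call of Nop58 was lost after the GC correction (adjusted p = 0.132). All 4 calls were lost without Srebp2WT replicate 1 or 3 or without Srebp2cKO replicate 7 or 8 (adjusted p up to 0.188). That of Rrs1 (edgeR adjusted p = 0.0498 with all libraries) was kept in 0 of the 6 fits that left out a library.

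**Figure D3:**
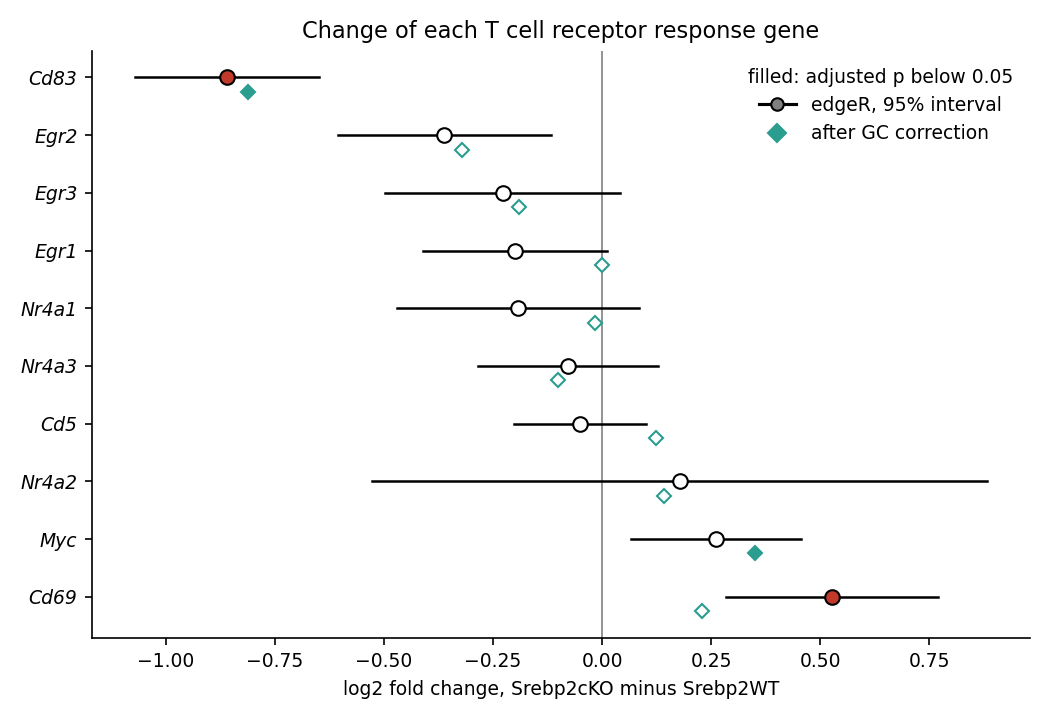
Log2 fold change of each member (horizontal axis, Srebp2cKO minus Srebp2WT), ordered from lowest to highest. Circles with lines are edgeR estimates with 95% intervals, diamonds the estimates after GC correction, and filled symbols passed at an adjusted p below 0.05. Cd83 passed both ways, Cd69 only without and Myc only with the correction.

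The members did not move as a block. Relative to the Srebp2WT mean, 7, 7 and 6 of the 10 members were lower in Srebp2cKO replicates 6, 7 and 8. In Srebp2WT replicates 1, 3 and 5 themselves, 3, 8 and 5 members lay below that mean. Srebp2cKO replicate 6 held the lowest value of all 6 libraries for 6 members (Nr4a2, Nr4a3, Egr1, Egr2, Egr3 and Cd83). Srebp2cKO replicate 8 held the highest for 3 (Nr4a1, Nr4a2 and Cd69).

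Genes with the most similar profile were sought for the 2 members that passed, as the smallest root mean square difference of mean-centred log2 CPM over the 6 libraries among 5468 other genes with a mean log2 CPM of at least 5. For Cd83 these were Neb (difference 0.06), Rnf43 (0.07) and Lamc1 (0.09), with log2 fold changes of -0.96, -0.86 and -0.82. For Cd69 they were the ribosomal protein genes Rps4x (0.04), Rpl9 (0.05) and Rpl38 (0.05), with log2 fold changes of 0.52, 0.46 and 0.48. All 6 passed the test. Genes sought for likeness to a called member share its fold change by selection, so this is not a separate result.

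Other genes that antigen receptor signalling induces were lower more often than higher. Of 21 tested, 7 fell and 2 rose, against 4.24% and 2.37% of all tested genes. The list's median log2 fold change was -0.29. Pdcd1, the inhibitory receptor PD-1, fell to 44.9 ± 6.97 CPM in Srebp2cKO, against 94.5 ± 16.4 CPM in Srebp2WT (log2 fold change -1.07, edgeR adjusted p = 0.00314). Nfatc1, the NFAT factor that its own pathway induces, fell to 252 ± 9.21 CPM in Srebp2cKO, against 369 ± 54.5 CPM in Srebp2WT (-0.55, adjusted p = 0.0177). Batf, an AP-1 family factor of effector Tregs (-0.64), and Tnfrsf9, the costimulatory receptor 4-1BB (-0.45), also fell. Il2ra, which encodes CD25 of the interleukin-2 receptor, rose to 920 ± 22.1 CPM in Srebp2cKO, against 691 ± 11.3 CPM in Srebp2WT (0.41, adjusted p = 0.0101), and Rgs1, a regulator of chemokine receptor signalling, rose by 0.65. Of these 9 calls, 6 were kept after the GC correction and that of Batf was not (adjusted p = 0.0761). Pdcd1 alone among the 9 kept its call whichever library was omitted. Without Srebp2WT replicate 3 the adjusted p of Il2ra was 0.0721, and the other 7 were lost without Srebp2WT replicate 1 or 3 and most of them also without a Srebp2cKO replicate (adjusted p up to 0.179).

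Upstream of the members, 3 of 21 genes of the receptor and its proximal signalling and 3 of 15 of calcium, calcineurin and NFAT signalling passed, where 6.61% of all tested genes did. Of the 21 tested genes of the receptor and its proximal signalling, Cd28, the main costimulatory receptor (0.43), and Rasgrp1, which activates RAS (0.30), rose, and Zap70, the kinase recruited by the receptor (-0.45), fell. The list's median log2 fold change was 0.04. Of the 15 calcium, calcineurin and NFAT genes, Nfatc1, Nfatc2 (-0.31) and the calcium channel Orai1 (-0.42) fell and 0 rose with edgeR or limma-voom, while DESeq2 called 2 higher. Pag1, an adaptor that recruits the inhibitory kinase CSK, rose (0.29) among 21 genes that restrain the receptor. Of 13 tested MAP kinase feedback genes, such as the dual-specificity phosphatases, 0 passed with edgeR or limma-voom, and the count higher was 1 with DESeq2 and with edgeR after the GC correction or without a filter. An unadjusted p under 0.05 was reached by 5 of the 13, against 29.1% of all tested genes. After the GC correction the calls of Cd28, Rasgrp1, Zap70, Nfatc2, Orai1 and Pag1 were lost (adjusted p of 0.0852, 0.0532, 0.106, 0.0892, 0.25 and 0.0516). Each was also lost without Srebp2WT replicate 1 or 3 and without Srebp2cKO replicate 7 or 8 (adjusted p up to 0.199).

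Among genes of egress and lymph node homing, to which CD69 is tied through S1PR1, Klf2, the factor that drives S1pr1 (0.46), and Ccr7, the chemokine receptor for lymph node entry (0.45), rose. S1pr1 itself stayed short of the threshold at 0.43 (edgeR adjusted p = 0.0582). The calls of Klf2 and Ccr7 held after the GC correction. Both were lost without Srebp2WT replicate 1 or 3, and that of Ccr7 also without Srebp2cKO replicate 8, with an adjusted p of up to 0.0754 for Klf2 and 0.119 for Ccr7.

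**Figure D4:**
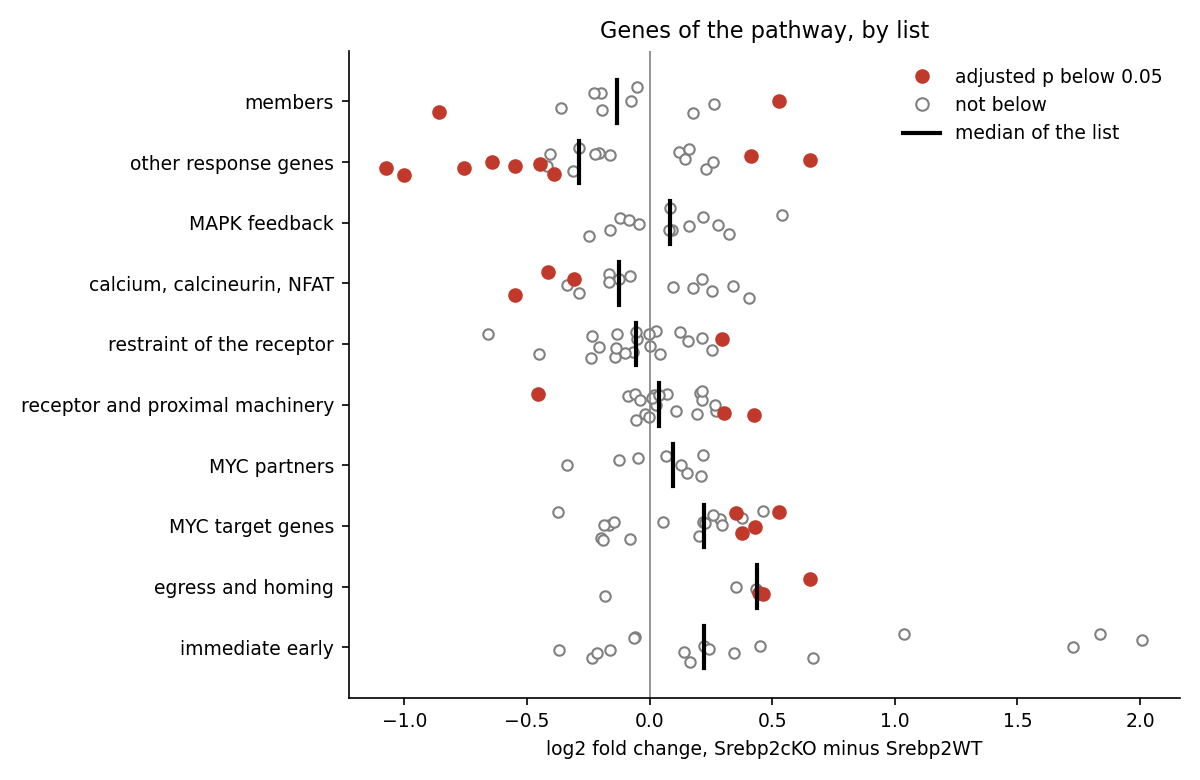
Log2 fold changes (horizontal axis, Srebp2cKO minus Srebp2WT) of the tested genes of each list, 1 circle a gene, spread vertically for visibility. Filled circles passed at an adjusted p below 0.05 and bars are list medians. The other response genes have 7 filled circles below 0 and 2 above, while the MAP kinase feedback, MYC partner and immediate early lists have none.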

How the data were processed

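The deposited table holds raw counts per gene symbol, which the authors made from total RNA depleted of ribosomal RNA (KAPA RNA HyperPrep with RiboErase, per the labels' protocols). The submitters' processing notes name HISAT2 2.2.1, Cell Ranger and mm10, without their roles. How reads were assigned to genes, with which annotation and strand setting, is not given in the sources used. No other annotated gene overlaps a member. Columns were matched by sample title, and libraries of a genotype differed by more than sampling noise.

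Counts were filtered with filterByExpr, scaled with TMM and tested over all 11932 kept genes with edgeR 4.0.16 in R 4.3.3 (quasi-likelihood F test, no covariate, Benjamini-Hochberg adjustment), after a check on simulated data. Calls used a false discovery rate of 0.05. Standard errors are the fold change divided by the root of F. Alternatives were other scalings, DESeq2 1.42.0, limma-voom (limma 3.58.1), other filters, a false discovery rate of 0.1, leaving out each library, and a GC correction (a loess trend with span 0.3 of log2 CPM on transcript GC, known for 11459 tested genes, removed as offsets). Gene lengths and positions came from GENCODE M21 (GRCm38).

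The members and gene lists were chosen with earlier results of these data known. Named were all members, Srebf2, Foxp3, the called genes of each list (for lists with over 6 calls, the 4 with the smallest p in each direction) and the genes most like a called member. Any gene named outside that rule was chosen after its values were seen. Some genes of these lists are not reported here.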

Additional observations from a re-analysis of the deposited data

How the results depend on the processing

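Srebf2 and Cd83 kept their direction and their call under all alternatives run. Over the 9 alternatives with all 6 libraries, 1 member was called higher under 8 of them (Myc in place of Cd69 after the GC correction) and 2 at a false discovery rate of 0.1. The count lower was 1 in 7 of them and 2 with DESeq2 and at a false discovery rate of 0.1, where Egr2 joined Cd83. Leaving out each library gave 0 to 1 members higher and 1 to 2 lower. Direction turned for Cd5 after the GC correction (0.12) and for Nr4a2 without Srebp2cKO replicate 8 (-0.39, within a range of -0.39 to 0.41), and neither was called. Over all genes, 283 were higher, against 613 with DESeq2, 473 without a filter, 184 with total counts alone and 861 at a false discovery rate of 0.1, and 506 were lower, against 1032 at a false discovery rate of 0.1. The higher share of calls was 35.9% with TMM, 24.4% with total counts alone, and 45.2% with DESeq2. Leaving out each library gave 29 to 700 higher and 135 to 787 lower, with fewer samples in each fit: 700 and 787 without Srebp2cKO replicate 6, 75 and 223 without replicate 7, 96 and 343 without replicate 8, 32 and 135 without Srebp2WT replicate 1, 29 and 155 without replicate 3, and 420 and 662 without replicate 5. Per length of the longest transcript, levels per kilobase were higher for Cd5 (150.2), Myc (53.7), Nr4a1 (33.9) and Cd69 (25.7). No paired analysis was possible because the genotypes share no replicate number. Counts of Nr4a2, under 200 in every library, limit it to a wide interval.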

Other observations

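Expression around the members was examined as the nearest tested gene on either side. Of the 20 neighbours, 2 passed the test, where 6.61% of all tested genes did. They were Stx17 beside Nr4a3 (log2 fold change 0.33, edgeR adjusted p = 0.0472) and Etf1 beside Egr1 (0.35, adjusted p = 0.0450). The neighbours of the 2 members that passed did not pass. Mcur1 (0.18) and Jarid2 (-0.06) flank Cd83, at distances of 225 and 926 kb. Cd69 is flanked by 2310001H17Rik (-0.16) at 28.6 kb and Gabarapl1 (-0.46, edgeR adjusted p = 0.0738) at 258 kb. Beside Myc, Pvt1, a long noncoding RNA gene 47.6 kb downstream, had a log2 fold change of -0.23 against 0.26 for Myc, and neither passed. Srebf2 (82147181 to 82205379) lies on chromosome 15, as do Nr4a1 and Myc. Of the genes beside Srebf2, Tnfrsf13c rose (2.92, edgeR adjusted p = 4.4e-04) and Ccdc134 did not pass (-0.13, adjusted p = 0.420). The part of linkage to the targeted allele in the Nr4a1 and Myc values was not tested.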
